A study of Mus musculus with 24 samples.

Results

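Dietary restriction was set against ad libitum feeding in epididymal white fat, the fat pad beside the testis, across every gene that the arrays detected. The compared samples were the 8 arrays titled dietary restriction (DR) and the 8 titled ad libitum (AL), which make up 16 of the 24 arrays of the study. The other 8 carry fat of mice given rapamycin (Rapa), a drug that inhibits the growth kinase mTOR. All mice were male C57BL6/J. The DR mice received 40% dietary restriction, the Rapa mice 14 ppm rapamycin and the AL mice food ad libitum. Each regime began at 2 months of age and ran for 6 months, and tissue was taken at 8 months. The labels number the samples but do not say that each is a separate animal, and the p-values refer to the spread among samples as deposited, which may be technical. They give neither the feeding schedule nor the hour of dissection.

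White adipocytes store triglyceride made from fatty acids that they import or build from glucose. In the building route, citrate leaves the mitochondrion, is cleaved to acetyl-CoA, and is joined into palmitate with NADPH, after which elongases and desaturases modify the chain. Fat is also a secretory tissue whose hormones report its fat stores, and it holds fibroblasts, vessels, macrophages and a molecular clock. Under dietary restriction rodents are known to lose fat mass and to eat their daily ration in a short time.

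Some labels name liver and others epididymal fat. All 24 arrays detected 13 of the 15 adipocyte markers that the platform carries. Of 22 hepatocyte markers 6 were detected on no array, among them Alb and Apob, the genes of albumin and apolipoprotein B, and 1 was detected on all. The probe at the 75th percentile of an array had a background-subtracted intensity between 17.5 and 78.9 in DR and between 24.8 and 111.7 in AL, and the arrays detected 13012 to 17593 probes in DR and 14657 to 18772 in AL.

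Transcripts of the epididymis, the sperm duct that touches this fat pad, set some DR arrays apart. The median log2 intensity of 16 epididymis markers lay between 5.05 and 9.78 in DR, between 4.70 and 11.34 in Rapa and between 4.65 and 5.63 in AL. It was above 6 on 5 DR arrays (DR1, DR3, DR5, DR7 and DR8), on 2 Rapa arrays and on 0 AL arrays. 5 of the 16 were called higher in DR and 0 lower, with a median log2 fold change of 2.63. The 12 testis and sperm markers had a median between 4.94 and 9.22 in DR, between 4.67 and 9.14 in Rapa and between 4.63 and 7.55 in AL, and 0 of them were called. The median of both kinds of marker together was above 6 on 4 DR arrays (DR1, DR3, DR5 and DR8), on 3 Rapa arrays and on 0 AL arrays. Results are therefore also given without those 7 arrays, which leaves 4 DR and 8 AL arrays. DR7, with an epididymis median of 6.88, is among those kept. There the epididymis list still had a median log2 fold change of 0.72, with 2 called higher. Without the arrays whose epididymis markers alone were above 6, it was 0.25, with 0 called. The part of these transcripts in the results was not tested beyond those values.

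**Figure D1:**
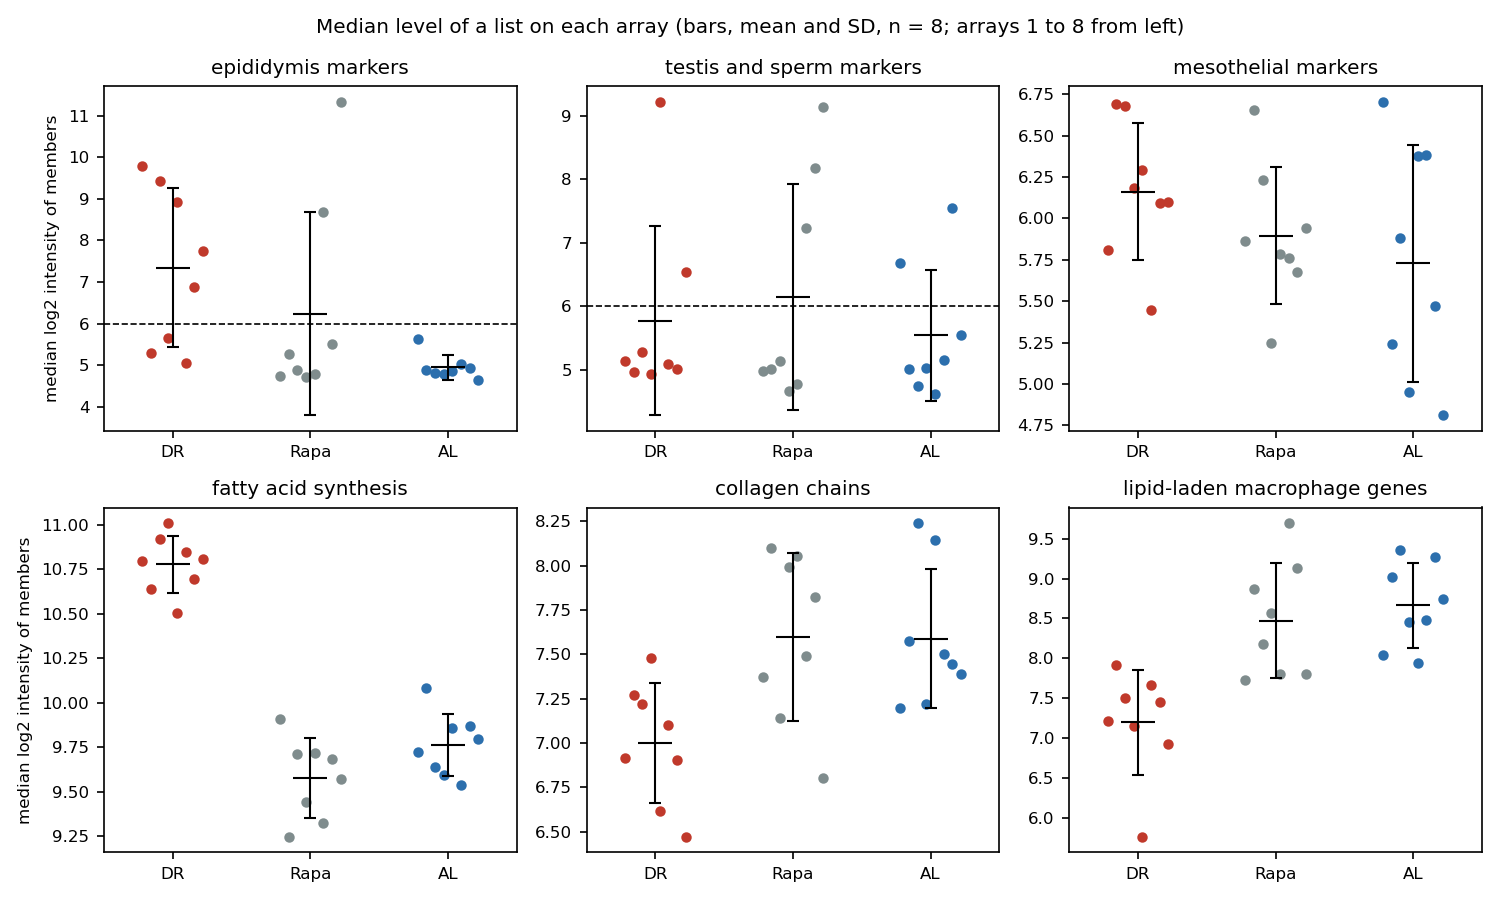
Median normalized log2 intensity of the measured members of 6 gene lists on each array, with points for the arrays of DR, Rapa and AL and bars for the mean and SD (n = 8). The median of epididymis markers reaches 9.78 in DR and stays at or below 5.63 in AL (dashed line at 6). The median of fatty acid synthesis genes, whose single members differ widely in level, lies between 10.51 and 11.01 on every DR array and between 9.54 and 10.08 in AL.

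Normalized intensities are on the log2 scale, and a fold change is DR minus AL on that scale with the standard error of the fit. Called genes are those with an adjusted p below 0.05 in a limma fit to all 24 arrays. Of 9836 genes measured, 1150 (11.7%) were called, 511 higher (5.20%) and 639 lower (6.50%). These shares are the background of every list count of this fit below, and a count near them is not read as a result about its list. List counts without the 7 arrays have a lower background, 302 of 9836 genes higher and 374 lower. Fewer genes were called there in general, so a smaller list count there is not read as a result about its list. With arrays centred on their median over all probes, most of which are near background, 68 genes were called higher and 509 lower, and the median of all genes stood at -0.28, against -0.01 here. Changes of at least 2-fold were held by 127 of the higher and 230 of the lower genes, and of at least 4-fold by 18 and 21. On 122 genes (1.24%) every DR array lay above every AL array and on 153 (1.56%) every DR array lay below, in all 2.80% of genes. Of these, 120 (1.22%) were also called higher and 149 (1.51%) called lower. Without the 7 arrays 676 genes were called, 302 higher and 374 lower. Of the 1150 genes 588 were among them, and 0 of these had the opposite sign. Neither count is independent support, since the arrays of this fit also made the 1150 calls.

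Array brightness followed the number in the sample title in steps of 4, which makes 4 classes of 2 arrays a group; the labels do not say what the number stands for. Of the 1150 genes 1127 had the same sign in all 4 classes, a count that is no independent support, since these arrays also made the calls. Within the classes the median log2 fold change of fatty acid synthesis genes lay between 0.84 and 1.29, that of pyruvate entry between 0.57 and 0.87, that of the clock loop between 0.41 and 1.38, that of collagen chains between -0.83 and -0.48 and that of lipid-laden macrophage genes between -0.84 and -0.48. That of epididymis markers lay between 0.15 and 4.39.

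**Figure D2:**
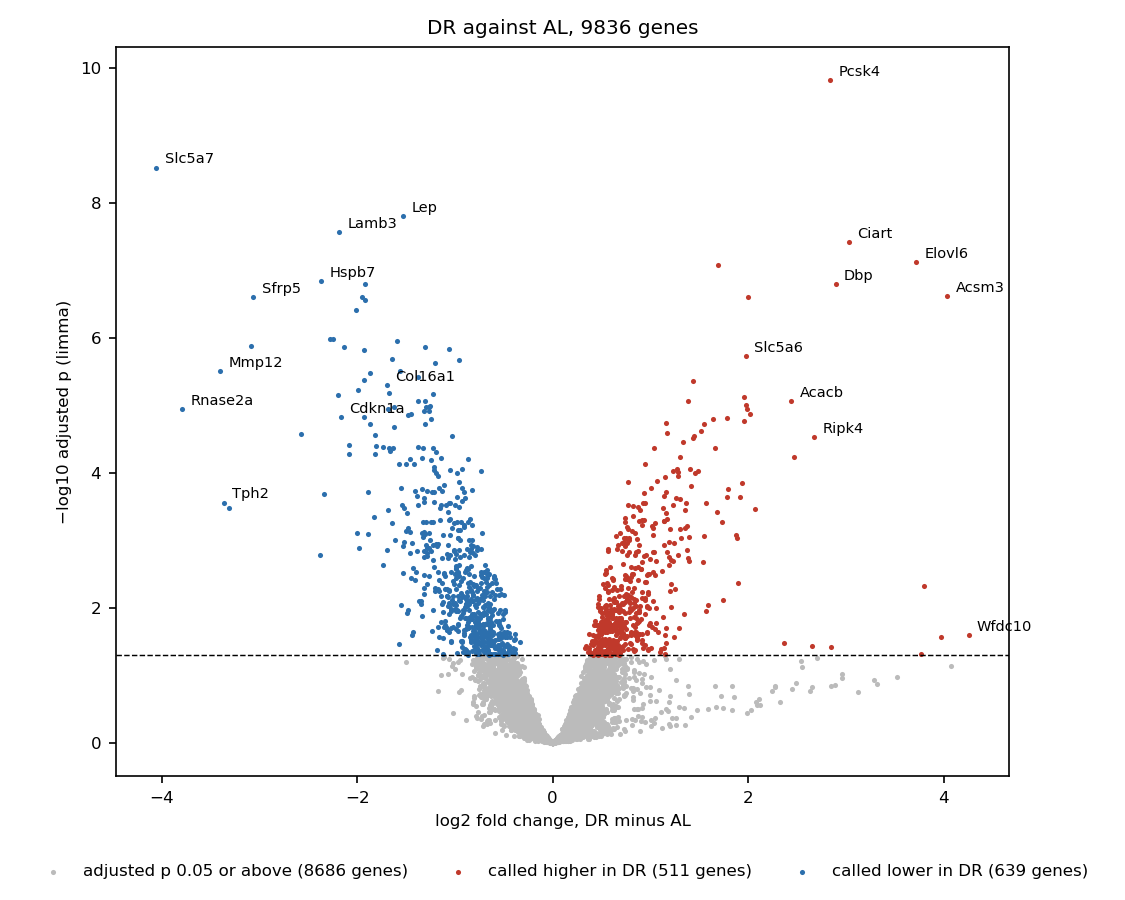
Log2 fold change of DR against AL (horizontal axis) and -log10 of the limma adjusted p (vertical axis) for 9836 genes, with a dashed line at an adjusted p of 0.05. The 511 genes called higher reach 4.25 (Wfdc10) and the 639 called lower reach -4.05 (Slc5a7); the gene with the smallest adjusted p is Pcsk4.

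The largest rises among genes whose groups did not overlap were led by Acsm3, a mitochondrial acyl-CoA synthetase for medium-chain fatty acids. Its log2 intensity lay between 9.97 and 11.53 (median 10.29) on the DR arrays, against 5.27 to 8.45 (median 6.25) on the AL arrays. Every DR array was above every AL array, and the log2 fold change was 4.03 ± 0.41 (SE, adjusted p = 2.37e-07). Elovl6, the elongase that extends palmitate, lay between 10.91 and 12.29 (median 11.61) on the DR arrays, against 6.71 to 8.51 (median 8.12) on the AL arrays. Even the lowest DR array stood more than 2 log2 units above the highest AL array, at 3.72 ± 0.35 (SE, adjusted p = 7.5e-08). Acacb, the acetyl-CoA carboxylase whose malonyl-CoA holds back fatty acid entry into mitochondria, lay between 9.58 and 11.01 (median 10.66) on the DR arrays, against 6.95 to 9.08 (median 7.99) on the AL arrays. The groups were apart, at 2.44 ± 0.32 (SE, adjusted p = 8.64e-06).

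Slc5a6 imports the vitamins biotin and pantothenate. It lay between 9.20 and 10.98 (median 10.47) on the DR arrays, against 7.98 to 8.69 (median 8.31) on the AL arrays, without overlap (1.98 ± 0.23 (SE, adjusted p = 1.87e-06)). Chchd10, a protein of the mitochondrial intermembrane space, lay between 11.90 and 12.80 (median 12.43) on the DR arrays, against 9.46 to 10.995 (median 10.19) on the AL arrays. The DR arrays were clustered and all higher, at 2.07 ± 0.36 (SE, adjusted p = 0.000345). Pcsk4 encodes a protease that cleaves prohormone-like precursors and is best known in sperm. It lay between 7.87 and 8.41 (median 8.18) on the DR arrays, against 4.94 to 5.86 (median 5.35) on the AL arrays. It had the smallest adjusted p of all genes, at 2.84 ± 0.19 (SE, adjusted p = 1.52e-10), and its log2 fold change was 2.82 (adjusted p = 6.54e-07) without the 7 arrays.

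Ripk4, a kinase known from epidermis, rose by 2.68 (adjusted p = 2.95e-05), and St3gal6, a sialyltransferase, by 2.00 (adjusted p = 2.5e-07). Chac1, which breaks down glutathione, rose by 2.02 (adjusted p = 1.33e-05). Fam13a rose by 1.97 (adjusted p = 9.79e-06) and Acot4, a peroxisomal acyl-CoA thioesterase, by 1.95 (adjusted p = 1.7e-05). The clock genes Ciart, Dbp and Per3, described further on, complete the group with Defb37, a defensin of the epididymis. Defb37 lay between 5.02 and 13.23 (median 7.80) on the DR arrays, against 4.63 to 4.98 (median 4.79) on the AL arrays, so that its DR arrays were spread over more than 8 log2 units. Its rise of 3.77 ± 1.23 (SE, adjusted p = 0.0484) was not called without any 1 of 14 arrays, where the highest adjusted p was 0.111, nor without the 7 arrays, at 1.66 (adjusted p = 0.0727).

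The largest fall was that of Slc5a7, the choline transporter of nerve endings. Its log2 intensity lay between 4.50 and 5.11 (median 4.66) on the DR arrays, against 7.69 to 9.32 (median 8.96) on the AL arrays. All 8 AL arrays detected it and no DR array did, so DR was at least 10.6-fold lower (adjusted p = 3e-09). Sfrp5, a secreted Wnt inhibitor that adipocytes make, lay between 5.46 and 8.58 (median 6.97) on the DR arrays, against 9.38 to 10.56 (median 9.93) on the AL arrays. DR arrays were all lower but differed among themselves by about 3 log2 units, and the fold change was -3.06 ± 0.31 (SE, adjusted p = 2.5e-07). Cdkn1a, the cell cycle inhibitor p21, lay between 6.93 and 9.37 (median 7.86) on the DR arrays, against 9.60 to 10.65 (median 10.42) on the AL arrays. No array of one group reached the other, and the fold change was -2.16 ± 0.29 (SE, adjusted p = 1.51e-05).

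Lamb3, a chain of an epithelial laminin, lay between 4.81 and 5.55 (median 5.08) on the DR arrays, against 6.44 to 7.90 (median 7.40) on the AL arrays. It was lower on every DR array (-2.18 ± 0.19 (SE, adjusted p = 2.74e-08)). Krt79, a keratin, changed by -2.20 (adjusted p = 6.98e-06). Tph2, the enzyme of serotonin synthesis in neurons, changed by -3.36 (adjusted p = 0.000276), and Unc79, a subunit of a sodium leak channel, by -2.25 (adjusted p = 1.03e-06). Hspb7, a small heat shock protein of muscle, changed by -2.37 (adjusted p = 1.44e-07) and Vstm2b by -2.27 (adjusted p = 1.03e-06). Most of these stood near background in DR, where Hspb7 was detected on 1 of 8 arrays, Unc79 and Vstm2b on 2 each and Tph2 and Lamb3 on 3 each, against 8 of 8 in AL for each of them.

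Ubd, a ubiquitin-like protein induced by inflammation, changed by -3.30 (adjusted p = 0.000332), and S100a8, a subunit of the neutrophil protein calprotectin, by -2.34 (adjusted p = 0.000206). The elastase of macrophages, Mmp12, was at -3.40 (adjusted p = 3.08e-06) and Lipf, known as a stomach lipase, at -3.08 (adjusted p = 1.33e-06). Trp53inp2, a regulator of autophagy and transcription, changed by -2.13 (adjusted p = 1.37e-06). Slc25a25, a mitochondrial carrier of ATP and phosphate, completes the 15 largest falls among genes whose groups did not overlap, at -2.08 (adjusted p = 5.34e-05). On the DR arrays Ubd lay between 4.62 and 6.37, Mmp12 between 4.39 and 6.41, Lipf between 4.57 and 5.74 and Slc25a25 between 4.63 and 6.44. The low ends of these ranges are near the DR values of Slc5a7, which no DR array detected. The sizes of these 4 falls are therefore uncertain. All 15 falls were also called without the 7 arrays, where Sfrp5 was at -2.46 (adjusted p = 2.79e-05) and Slc25a25 at -1.65 (adjusted p = 0.00159). That is no independent support, since the remaining arrays also served to pick these genes. In bulk fat, fewer cells of a type and less RNA per cell cannot be told apart.

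The median number of probes detected was 15307.5 on DR arrays, against 16751 on AL arrays. Genes detected on all 8 arrays of one group and on no array of the other were 5, and all 5 were undetected in DR. Besides Slc5a7 they were Pvalb, a calcium-binding protein of muscle and neurons, at least 2.81-fold lower, Rrad, a small GTPase of muscle, at least 2.36-fold lower, Lonrf2, at least 1.62-fold lower, and Spc25, a kinetochore protein, at least 1.19-fold lower. Rrad lay between 4.44 and 4.92 (median 4.74) on the DR arrays, against 5.63 to 7.32 (median 6.54) on the AL arrays. These values do not overlap, and the adjusted p was 3.32e-06. Spc25 overlapped between the groups in measured intensity and had an adjusted p of 0.00794.

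**Figure D3:**
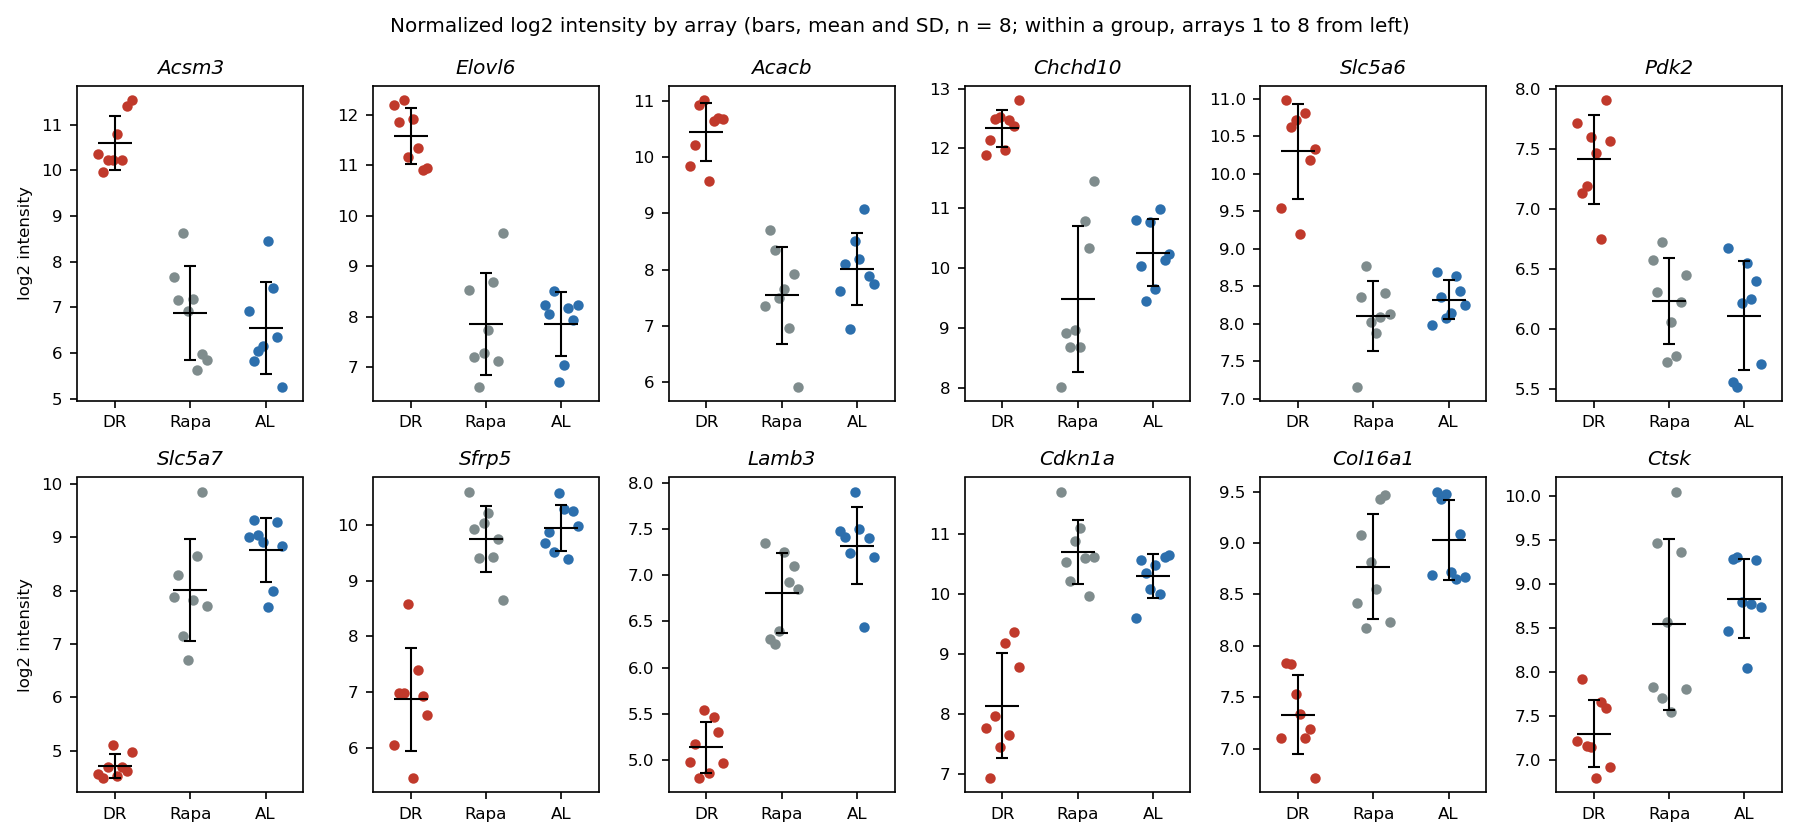
Normalized log2 intensity of 12 genes on each array, with points for the arrays of DR, Rapa and AL and bars for the mean and SD (n = 8). The upper 6 genes are higher on every DR array than on any AL array and the lower 6 are lower, for example Slc5a7 with at most 5.11 in DR and at least 7.69 in AL.

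The circadian clock is a loop in which Clock and Arntl (BMAL1) bind E-boxes and switch on Per, Cry and Nr1d genes, whose proteins repress the loop in turn. Dbp and Tef are its output factors and bind D-boxes, and Nr1d and ROR proteins act on ROR elements such as those known at Arntl. Upstream sequence was read for the called clock genes, since these genes moved together. RefSeq promoters (build GRCm38.p6) were at hand for 10 of the 12 called clock genes. Windows of 300 bases, from 250 before to 50 after a start, were searched on both strands for the E-box CACGTG, the D-box TTANGTAA and the ROR element TAGGTCA. An E-box stood in 7.15% of 32851 promoters, a D-box in 2.32% and a ROR element in 2.61%. Among called clock genes an E-box was found at Ciart, Per1 and Tef, D-boxes at Per3, and a ROR element downstream of 1 start of Arntl. The windows of Dbp, Nr1d1, Nr1d2, Rora and Clock held none of these letters. The 250 bases before the start are given 5′ to 3′ for the genes with a match there, with matches in capitals. They are chr3:95882229-95882478 (minus strand) for Ciart, chr11:69098699-69098948 (plus) for Per1, chr15:81802423-81802672 and chr15:81811164-81811413 (plus) for 2 starts of Tef, and chr4:151044666-151044915 (minus) for Per3.
Ciart: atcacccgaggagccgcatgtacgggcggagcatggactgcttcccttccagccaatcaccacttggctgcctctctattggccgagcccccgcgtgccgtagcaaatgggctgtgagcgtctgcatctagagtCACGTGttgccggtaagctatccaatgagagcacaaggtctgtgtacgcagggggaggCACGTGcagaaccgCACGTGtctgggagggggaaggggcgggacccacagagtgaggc
Per1: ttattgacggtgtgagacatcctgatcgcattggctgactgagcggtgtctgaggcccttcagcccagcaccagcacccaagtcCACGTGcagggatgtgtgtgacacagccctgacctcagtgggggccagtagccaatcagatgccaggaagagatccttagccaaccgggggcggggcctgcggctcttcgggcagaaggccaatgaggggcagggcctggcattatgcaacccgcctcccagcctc
Tef, first start: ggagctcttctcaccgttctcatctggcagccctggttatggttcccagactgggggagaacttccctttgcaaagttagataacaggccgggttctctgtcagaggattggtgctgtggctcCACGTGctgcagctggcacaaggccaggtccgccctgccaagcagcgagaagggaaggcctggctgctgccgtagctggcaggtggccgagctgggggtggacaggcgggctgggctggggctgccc
Tef, other start: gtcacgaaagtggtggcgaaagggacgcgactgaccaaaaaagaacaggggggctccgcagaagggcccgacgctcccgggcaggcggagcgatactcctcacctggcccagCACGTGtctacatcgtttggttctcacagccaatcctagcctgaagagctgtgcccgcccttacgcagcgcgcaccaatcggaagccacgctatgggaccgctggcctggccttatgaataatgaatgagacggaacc
Per3: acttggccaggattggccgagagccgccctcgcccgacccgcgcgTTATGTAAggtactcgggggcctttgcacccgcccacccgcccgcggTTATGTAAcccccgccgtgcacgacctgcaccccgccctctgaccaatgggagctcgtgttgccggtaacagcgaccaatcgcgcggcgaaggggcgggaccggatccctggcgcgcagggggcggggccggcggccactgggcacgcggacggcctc

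Ciart, whose window holds 3 E-boxes, encodes a repressor of Clock and Arntl. It lay between 6.73 and 9.47 (median 8.40) on the DR arrays, against 4.71 to 5.85 (median 5.32) on the AL arrays. All DR arrays were higher, with DR1 and DR5 highest and DR4 lowest, and the fold change was 3.03 ± 0.27 (SE, adjusted p = 3.8e-08). Per3, with its pair of D-boxes, lay between 7.88 and 9.03 (median 8.09) on the DR arrays, against 5.73 to 7.54 (median 6.29) on the AL arrays. The groups were apart at 1.99 ± 0.26 (SE, adjusted p = 1.13e-05), and 1 AL array, AL1, stood above the other AL arrays. Dbp, in whose window no match was found, lay between 11.34 and 12.50 (median 12.10) on the DR arrays, against 8.36 to 10.29 (median 9.12) on the AL arrays. It was higher on each DR array, at 2.89 ± 0.29 (SE, adjusted p = 1.59e-07). Tef rose by 1.80 (adjusted p = 0.000175) with 1 AL array within the DR range.

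Of 13 measured members of the loop 8 were called higher and 2 lower, with a median of 1.15, and both output factors were called higher. Among the repressors, Per2 rose by 1.79 (adjusted p = 1.52e-05), Per1 by 1.31 (adjusted p = 0.000935) and Nr1d1, the heme-binding repressor REV-ERBα, by 1.28 (adjusted p = 0.000113). The lower genes were Clock and Arntl, the activators. Arntl lay between 4.66 and 6.01 (median 4.78) on the DR arrays, against 5.91 to 7.18 (median 6.64) on the AL arrays. DR1 had the highest Arntl among DR arrays and was the array that overlapped with AL; the fold change was -1.68 ± 0.22 (SE, adjusted p = 1.12e-05). Arntl was detected on 1 of 8 DR arrays and on 8 of 8 AL arrays. The loop counted 6 higher and 2 lower without the 7 arrays, at a median of 1.32. Counted by gene, with a match in any of its windows, an E-box stood at 11.5% of 410 higher genes with a promoter, at 6.63% of 498 lower genes and at 11.9% of all 7947 measured genes with one.

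**Figure D4:**
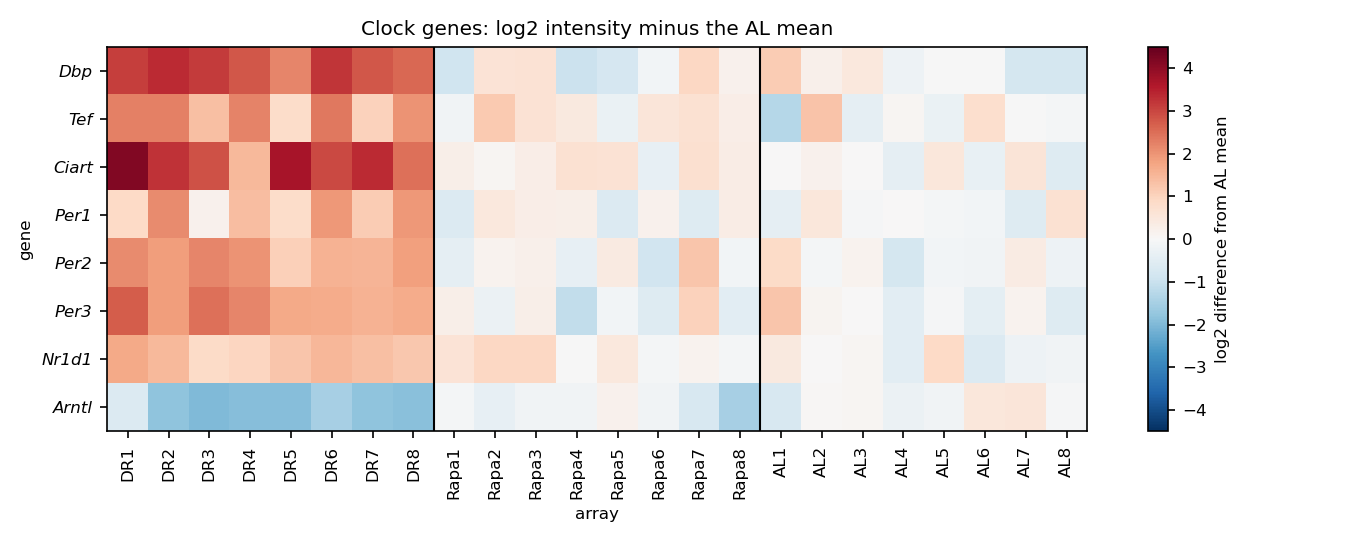
Log2 intensity of 8 clock genes minus the AL mean of the gene (colour scale), with a column for each array of DR, Rapa and AL. Dbp, Tef, Ciart, the 3 Per genes and Nr1d1 are above the AL mean on all 8 DR arrays and Arntl is below it on all 8.

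The list of fatty acid synthesis genes, which includes suppliers of acetyl-CoA, had the highest share of rises among lists of at least 3 measured genes. Of 9 measured genes, 6 were called higher and 0 lower (median 0.93), and Acacb, named above, was the largest rise among them. The median level of the list lay between 10.51 and 11.01 on DR arrays, against 9.54 to 10.08 on AL arrays. Slc25a1, the carrier that exports citrate from mitochondria, lay between 11.82 and 12.97 (median 12.11) on the DR arrays, against 10.58 to 11.17 (median 10.89) on the AL arrays, without overlap (1.39 ± 0.18 (SE, adjusted p = 8.64e-06)). Acly, which cleaves that citrate, rose by 1.44 (adjusted p = 4.32e-06), and Acss2, which makes acetyl-CoA from acetate, by 1.55 (adjusted p = 1.91e-05), each with all DR arrays above all AL arrays. Fasn, the fatty acid synthase, lay between 4.79 and 7.75 (median 6.59) on the DR arrays, against 4.59 to 6.50 (median 5.67) on the AL arrays. Its groups overlapped and it was not called (0.93 (adjusted p = 0.0958)), although it was with median scaling over the kept probes, at 1.06 (adjusted p = 0.0294). Its probe was detected on 6 DR and 5 AL arrays. This list counted 6 higher and 0 lower without the 7 arrays, at a median of 1.23.

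The steps after palmitate moved less as a list. Of 14 elongation and desaturation genes 3 were called higher and 1 lower (median 0.06), with Elovl6 far above the others. Scd1, the stearoyl-CoA desaturase, lay between 14.00 and 14.38 (median 14.07) on the DR arrays, against 13.43 to 13.95 (median 13.77) on the AL arrays. The narrow groups did not overlap, and the fold change was 0.42 ± 0.12 (SE, adjusted p = 0.018), or 0.46 (adjusted p = 0.0763) without the 7 arrays. Tecr, the reductase of the last elongation step, rose by 0.84 (adjusted p = 0.0137). Of 10 genes of NADPH supply 2 were called higher and 0 lower. Of 12 lipogenic regulators 1 was called higher and 0 lower: Srebf1, the factor SREBP1, at 0.80 (adjusted p = 0.0229). That call was lost without any 1 of 3 arrays (AL4, DR1 or DR3, adjusted p up to 0.0559) and without the 7 arrays (0.53 (adjusted p = 0.277)). Mlxipl, the glucose-sensing factor ChREBP, was at 0.58 (adjusted p = 0.253), or 1.08 (adjusted p = 0.0515) without the 7 arrays, not called in either.

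Triglyceride assembly and storage had calls in both directions. Of 16 glycerolipid synthesis genes 4 were called higher and 1 lower (median 0.15). Gpam, the first acyltransferase of the route, lay between 7.17 and 8.34 (median 7.97) on the DR arrays, against 6.57 to 7.11 (median 6.83) on the AL arrays. The groups were apart (1.00 ± 0.16 (SE, adjusted p = 0.00017)). Pck1, which makes glycerol phosphate from pyruvate in fat, rose by 1.59 (adjusted p = 0.00902) and Lpin1, the phosphatidate phosphatase, by 0.91 (adjusted p = 0.00268). The gene called lower was Mogat2, a monoacylglycerol acyltransferase, at -1.49 (adjusted p = 0.000389). Dgat2, which adds the last acyl chain, was at -0.51 (adjusted p = 0.0515).

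Lipid droplet proteins were called lower in 5 of 19 and higher in 1 (median -0.26). Hilpda, an inhibitor of the triglyceride lipase ATGL, lay between 7.45 and 8.48 (median 7.89) on the DR arrays, against 9.03 to 9.80 (median 9.57) on the AL arrays. All DR arrays were below all AL arrays (-1.59 ± 0.18 (SE, adjusted p = 1.1e-06)). Cavin3, a coat protein of caveolae, changed by -1.56 (adjusted p = 3.08e-06) and Pnpla3, a lipid droplet acylhydrolase, by -2.001 (adjusted p = 0.000768). G0s2, the other inhibitor of ATGL, changed by -1.19 (adjusted p = 4.86e-05). ATGL itself (Pnpla2) was at 0.42 (adjusted p = 0.151) and hormone-sensitive lipase (Lipe) at 0.55 (adjusted p = 0.119), neither called. Of 13 lipolysis genes 1 was called higher and 1 lower, 7.69% each, against 5.20% and 6.50% of all genes. The droplet list counted 1 higher and 4 lower without the 7 arrays, at a median of -0.01.

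Of 17 genes of fatty acid uptake and activation 3 were called higher and 2 lower. The higher ones were Acsm3, its relative Acsm5 at 1.38 (adjusted p = 0.00185) and the transporter Slc27a1 (FATP1) at 1.30 (adjusted p = 0.000677). Angptl4, a secreted inhibitor of lipoprotein lipase, changed by -1.18 (adjusted p = 0.0192), or -0.92 (adjusted p = 0.0737) without the 7 arrays. Lipoprotein lipase itself (Lpl) was among the brightest of 45281 probes, with at most 5 brighter on a DR array and at most 3 on an AL array, a range where quantile normalization gives all arrays the same few values. It was at -0.06 (adjusted p = 0.783), against 0.28 (adjusted p = 0.414) with median scaling over the kept probes, and was called in neither. Beta-oxidation in mitochondria had 0 of 18 genes called in either direction (median 0.17). Peroxisomal lipid metabolism had 3 of 24 called higher (12.5%, against 5.20% of all genes), among them Pex3, which starts the peroxisomal membrane, at 0.81 (adjusted p = 0.000738). Cholesterol synthesis had 2 of 14 called lower, among them Hsd17b7 at -0.88 (adjusted p = 0.00274), and 0 higher and 1 lower without the 7 arrays.

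Of 12 measured genes that pass pyruvate into mitochondrial metabolism, 7 were called higher and 0 lower (median 0.70). Pdha1, the catalytic subunit of pyruvate dehydrogenase, lay between 11.94 and 12.75 (median 12.44) on the DR arrays, against 10.83 to 11.50 (median 11.26) on the AL arrays. The arrays of the groups were apart (1.15 ± 0.18 (SE, adjusted p = 0.000115)). Pdk1 and Pdk2, kinases that switch that enzyme off, were higher as well, Pdk1 by 1.57 (adjusted p = 0.000276) and Pdk2 by 1.31 (adjusted p = 5.88e-05). Pcx, the pyruvate carboxylase, rose by 0.97 (adjusted p = 0.00312). The count was 6 higher and 0 lower without the 7 arrays.

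Farther along, 1 of 14 TCA cycle genes was called higher and 0 lower. Of 70 genes of the respiratory chain and ATP synthase 8 were called higher and 0 lower, with a median of 0.23 over the list, against -0.01 over all genes. The median level of this list was 11.50 ± 0.14 in DR and 11.19 ± 0.10 in AL (SD, n = 8 each). Ndufa10, a subunit of complex I, lay between 11.94 and 12.32 (median 12.22) on the DR arrays, against 11.47 to 11.81 (median 11.62) on the AL arrays. The shift was small and without overlap (0.57 ± 0.11 (SE, adjusted p = 0.00143)), with DR2 below the other DR arrays. Ndufa12, another subunit of the same complex, rose by 0.59 (adjusted p = 0.00252), or 0.46 (adjusted p = 0.0958) without the 7 arrays, where the list counted 3 higher and 0 lower. Mitochondrial ribosomal proteins had 5 of 70 called higher, with Mrps30 at 0.66 (adjusted p = 0.00119), and 1 lower (2 higher and 0 lower without the 7 arrays). Their 7.14% higher and 1.43% lower stand against 5.20% and 6.50% of all genes. Mitochondrial carriers had 6 of 31 called higher, among them Slc25a1 and the pyrimidine nucleotide carrier Slc25a33 at 0.95 (adjusted p = 0.000276), and 1 lower, the Slc25a25 already named (3 higher and 1 lower without the 7 arrays).

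Glycolysis had calls in both directions, 4 higher and 3 lower of 17 (1 higher and 2 lower without the 7 arrays). The isoforms of phosphofructokinase, the enzyme that commits sugar to glycolysis, moved apart. Pfkl, the liver type, lay between 10.49 and 11.32 (median 10.68) on the DR arrays, against 9.92 to 10.29 (median 10.04) on the AL arrays. It was higher on every DR array (0.73 ± 0.14 (SE, adjusted p = 0.00104)). Pfkp, the platelet type, lay between 6.87 and 7.81 (median 7.52) on the DR arrays, against 7.95 to 9.34 (median 8.84) on the AL arrays. It was lower on every DR array (-1.33 ± 0.22 (SE, adjusted p = 0.000175)), although the other of its 2 kept probes was not called. Pfkfb4, which sets the level of the activator fructose 2,6-bisphosphate, changed by -1.37 (adjusted p = 8.64e-06). Branched-chain amino acid breakdown had 4 of 20 called higher and 1 lower (2 higher and 1 lower without the 7 arrays), and its aminotransferases divided. Bcat2, the mitochondrial one, rose by 0.91 (adjusted p = 0.0146), whereas Bcat1, the cytosolic one, changed by -1.82 (adjusted p = 2.72e-05) and was detected on 2 DR and 8 AL arrays. Hsd17b10, an enzyme of isoleucine breakdown, rose by 0.78 (adjusted p = 0.00786). Of 10 brown and beige adipocyte genes 2 were called higher, the coactivator Ppargc1b at 1.19 (adjusted p = 0.0023) and the lipid droplet protein Cidea at 1.12 (adjusted p = 0.00282), and 0 lower.

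Insulin signalling counted 3 higher and 2 lower of 16 (2 higher and 1 lower without the 7 arrays). Grb14, an adaptor that inhibits the insulin receptor, lay between 4.93 and 6.17 (median 5.33) on the DR arrays, against 6.54 to 7.47 (median 7.10) on the AL arrays. The groups did not overlap (-1.67 ± 0.21 (SE, adjusted p = 6.45e-06)). Akt2, the insulin-responsive kinase, rose by 0.86 (adjusted p = 0.00765) and the insulin receptor gene Insr by 0.72 (adjusted p = 0.0235). Insr lost its call without DR4 or without DR8 (adjusted p up to 0.0588). Slc2a4, the glucose transporter GLUT4, was at 0.33 (adjusted p = 0.287). It was called at 0.61 (adjusted p = 0.0465) without the arrays whose epididymis markers alone were above 6.

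In the IGF1 axis 1 of 16 genes was called higher and 3 lower (1 higher and 1 lower without the 7 arrays). Igfals, the subunit that keeps IGF1 complexes in blood, changed by -1.48 (adjusted p = 0.000657), and Igfbp5, an IGF-binding protein, by -0.93 (adjusted p = 0.00593), or -0.57 (adjusted p = 0.204) without the 7 arrays. Igf1 was at -0.28 (adjusted p = 0.403). Of 11 imprinted growth genes 1 was called higher and 1 lower (0 higher and 0 lower without the 7 arrays). The higher one was Cdkn1c, the cell cycle inhibitor p57, at 0.99 (adjusted p = 0.00319), or 0.85 (adjusted p = 0.0553) without the 7 arrays.

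Translation was covered by several lists. Cytosolic ribosomal proteins had 1 of 52 called higher and 0 lower, with a median of 0.01. Translation initiation factors had 1 of 38 called higher and 0 lower, aminoacyl-tRNA synthetases had 0 of 30 called, and mTOR complexes and regulators had 1 of 24 called higher and 0 lower. None of these calls was made without the 7 arrays. Cell cycle and replication genes counted 2 of 22 lower and 0 higher. They were Cdkn1a, which inhibits the cycle, and Mcm5, a subunit of the replication helicase.

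Genes known to rise as fat pads expand were called lower in 5 of 11 and higher in 0 (median -1.02). Sfrp5, named above, was the lowest of them, and the list was chosen with earlier results of these data known. Lep encodes leptin, the hormone that reports fat mass. It lay between 12.95 and 13.55 (median 13.36) on the DR arrays, against 14.60 to 15.17 (median 14.71) on the AL arrays. All 8 DR arrays were below every AL array (-1.53 ± 0.13 (SE, adjusted p = 1.55e-08)). Some of its AL values lay in the bright range where quantile normalization gives arrays the same few values, as for Lpl. With median scaling over the kept probes the change of Lep was -1.39 (adjusted p = 3.53e-06). With the authors' score it was -1.13 on that score's scale (adjusted p = 0.047). Fgf13, an intracellular fibroblast growth factor homolog, changed by -1.46 (adjusted p = 0.00155). Without the 7 arrays the list counted 0 higher and 4 lower, and its median was -0.47.

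Adipokines divided, 3 higher and 2 lower of 13, Lep among the lower. Nrg4, a growth factor that adipocytes secrete, lay between 10.28 and 11.28 (median 10.66) on the DR arrays, against 9.03 to 10.12 (median 9.53) on the AL arrays. It was higher on all DR arrays (1.23 ± 0.26 (SE, adjusted p = 0.00203)). Vegfa, the vessel growth factor, rose by 1.14 (adjusted p = 0.00116), also without overlap. Rarres2, which encodes chemerin, changed by -1.22 (adjusted p = 8.1e-05). Adiponectin (Adipoq) had the values 13.62 ± 0.21 in DR and 13.66 ± 0.30 in AL (SD, n = 8 each) and a fold change of -0.03 (adjusted p = 0.924). Adipogenic transcription factors counted 2 higher and 1 lower of 17 (11.8% and 5.88%, against 5.20% and 6.50% of all genes). Tcf7l2, a factor of the Wnt pathway, rose by 0.69 (adjusted p = 0.0183). Pparg, the master factor of adipocytes, was at 0.50 (adjusted p = 0.111) and Cebpa, another such factor, at 0.36 (adjusted p = 0.457), or 0.55 (adjusted p = 0.189) without the 7 arrays. Pparg was called without the 7 arrays, at 0.76 (adjusted p = 0.015).

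Glucocorticoid-responsive genes counted 4 higher and 2 lower of 16, a list that includes the clock gene Per1. Hsd11b1 encodes the enzyme that regenerates active glucocorticoid within cells. It lay between 13.36 and 13.99 (median 13.75) on the DR arrays, against 11.60 to 12.88 (median 12.35) on the AL arrays. Every DR array was higher (1.45 ± 0.21 (SE, adjusted p = 2.81e-05)). Fkbp5, a classic glucocorticoid target, was at 1.29 (adjusted p = 0.0567) and not called.

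Of the lists on protein turnover, the proteasome had 0 of 38 genes called in either direction. Lysosomal genes counted 7 lower and 1 higher of 33 (median -0.27), and 1 higher and 3 lower without the 7 arrays. The higher one, the cholesterol exporter Npc1, had another probe that was called in the opposite direction. Ctsk, the protease cathepsin K, lay between 6.80 and 7.92 (median 7.19) on the DR arrays, against 8.04 to 9.31 (median 8.79) on the AL arrays. The groups did not overlap (-1.53 ± 0.31 (SE, adjusted p = 0.00123)). Glb1, the lysosomal beta-galactosidase, changed by -1.08 (adjusted p = 0.00656) and Ctsa, the protein that protects it, by -0.85 (adjusted p = 0.00177), or -0.69 (adjusted p = 0.057) without the 7 arrays. Autophagy genes counted 2 lower and 0 higher of 28. They were Map1lc3a, of the LC3 family that coats autophagosomes, at -0.84 (adjusted p = 0.014) and Atg101, of the complex that starts autophagy, at -0.55 (adjusted p = 0.00649). Neither was called without the 7 arrays, where Map1lc3a was at -0.86 (adjusted p = 0.0795) and Atg101 at -0.49 (adjusted p = 0.0594).

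Heat shock proteins counted 7 lower and 2 higher of 22 (median -0.24), and 0 higher and 4 lower without the 7 arrays. The higher ones were the mitochondrial chaperone Hspa9 and the co-chaperone Dnajb4. Hsph1, a large chaperone of the Hsp110 family, lay between 4.80 and 7.23 (median 6.66) on the DR arrays, against 7.29 to 8.89 (median 8.11) on the AL arrays. DR5 was the lowest DR array, and no DR array reached the AL range (-1.50 ± 0.28 (SE, adjusted p = 0.000729)). The small heat shock proteins Cryab and Hspb1 changed by -1.36 (adjusted p = 0.00784) and -1.34 (adjusted p = 0.00794), and by -1.01 (adjusted p = 0.18) and -0.92 (adjusted p = 0.2) without the 7 arrays. Endoplasmic reticulum chaperones had 1 of 19 called lower, Edem1, which sends misfolded glycoproteins to degradation, at -0.99 (adjusted p = 0.00157). ATF4 targets and serine synthesis counted 2 higher and 4 lower of 22. The higher ones were Chac1, named above, and Shmt1, the cytosolic serine hydroxymethyltransferase, at 0.89 (adjusted p = 0.00119).

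Glutathione transferases and NRF2 targets were called higher in 5 of 31 and lower in 0. Gsta4, which conjugates the lipid peroxidation product hydroxynonenal, lay between 8.05 and 8.80 (median 8.47) on the DR arrays, against 6.75 to 7.69 (median 6.85) on the AL arrays. The groups did not overlap (1.43 ± 0.21 (SE, adjusted p = 3.08e-05)). Mgst2, a membrane-bound relative, rose by 1.33 (adjusted p = 3.5e-05), also without overlap, and Gstt2 by 1.38 (adjusted p = 0.00137). Without the 7 arrays the count was 5 higher and 0 lower, and the median was 0.08, against 0.24 with them. Superoxide and peroxide enzymes counted 3 higher and 1 lower of 20 (0 higher and 1 lower without the 7 arrays). The secreted glutathione peroxidase Gpx3 rose by 1.06 (adjusted p = 0.0169), or 0.88 (adjusted p = 0.0602) without the 7 arrays, and the extracellular superoxide dismutase Sod3 changed by -0.87 (adjusted p = 0.00656). Aldehyde dehydrogenases had 1 of 15 called higher and 2 lower (0 higher and 2 lower without the 7 arrays), with Aldh3b1 at -1.27 (adjusted p = 1.06e-05).

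Of 23 collagen chains 10 were called lower and 0 higher (median -0.74). The median level of these chains lay between 6.47 and 7.48 on DR arrays, against 7.20 to 8.24 on AL arrays. Col16a1, a chain that sits on fibril surfaces, lay between 6.71 and 7.83 (median 7.26) on the DR arrays, against 8.65 to 9.50 (median 8.90) on the AL arrays. It was the largest fall of a chain among these and the groups were apart (-1.70 ± 0.21 (SE, adjusted p = 5.02e-06)). Col6a1 and Col6a2, chains of the microfibrils around adipocytes, changed by -1.09 (adjusted p = 0.000304) and -1.22 (adjusted p = 0.00252), and the fibril regulator Col5a1 by -1.14 (adjusted p = 6.12e-05). The chains counted 0 higher and 7 lower without the 7 arrays.

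Proteins that fold and link collagen had 4 of 15 called lower and 0 higher (median -0.41). Serpinh1, the collagen chaperone HSP47, lay between 11.57 and 12.31 (median 11.96) on the DR arrays, against 12.50 to 13.52 (median 13.07) on the AL arrays. No overlap was seen (-1.05 ± 0.17 (SE, adjusted p = 9.21e-05)). Loxl1, a lysyl oxidase, changed by -0.71 (adjusted p = 0.0129) and Pcolce2, an enhancer of procollagen cleavage, by -1.29 (adjusted p = 0.000531). Matrix glycoproteins and proteoglycans counted 7 lower and 0 higher of 34 (0 higher and 4 lower without the 7 arrays). Sparc, a collagen-binding glycoprotein, lay between 11.63 and 12.93 (median 12.43) on the DR arrays, against 13.43 to 13.87 (median 13.60) on the AL arrays. The spread in DR was wider, yet the groups did not overlap (-1.23 ± 0.18 (SE, adjusted p = 4.29e-05)). Tnc, or tenascin C, changed by -1.004 (adjusted p = 0.00143) and the proteoglycan Prelp by -0.94 (adjusted p = 0.000696). Metalloproteinases and their inhibitors counted 6 lower and 1 higher of 21, Mmp12 among the lower (1 higher and 2 lower without the 7 arrays). Timp1, the inhibitor of metalloproteinases, changed by -1.04 (adjusted p = 0.00294), or -0.81 (adjusted p = 0.0543) without the 7 arrays. Adamts4, a protease of proteoglycans, was detected on 0 DR and 6 AL arrays and was at least 1.01-fold lower (adjusted p = 0.00422).

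Genes of lipid-laden macrophages were called lower in 6 of 15 and higher in 0 (median -0.64), and 0 higher and 4 lower were called without the 7 arrays. Their median level lay between 5.76 and 7.92 on DR arrays, against 7.94 to 9.35 on AL arrays. That level is the value of 1 middle member. It was Ctsk on DR1, DR2, DR4, DR6, DR8, AL7 and AL8 and Mmp12 on AL1, AL2 and AL4, both named above. It does not stand for every member, since 9 of the 15 were not called. Trem2, a lipid-sensing receptor of these cells, lay between 5.76 and 6.86 (median 6.25) on the DR arrays, against 6.79 to 8.73 (median 8.07) on the AL arrays. AL6 fell within the DR range and the other AL arrays lay above it (-1.52 ± 0.30 (SE, adjusted p = 0.00104)). Gpnmb, a glycoprotein of the same cells, changed by -2.38 (adjusted p = 0.00162), or -1.86 (adjusted p = 0.0539) without the 7 arrays. Resident macrophage genes had 2 of 19 called lower and 1 higher (median -0.32), and 1 higher and 1 lower without the 7 arrays (median -0.08). Mpeg1, a pore-forming protein of macrophages, changed by -1.45 (adjusted p = 0.00355). Adgre1, the macrophage surface marker, was at -1.06 (adjusted p = 0.0229). Its call was lost without AL2, AL3 or AL7 (adjusted p up to 0.0558) and without the 7 arrays (-0.87 (adjusted p = 0.0985)). Csf1r, the receptor on which macrophages depend, was at -0.23 (adjusted p = 0.44), or -0.05 (adjusted p = 0.93) without the 7 arrays.

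Chemokines counted 8 lower and 1 higher of 24 (median -0.47). Ccl7, which draws monocytes, lay between 4.84 and 7.14 (median 5.87) on the DR arrays, against 6.88 to 9.44 (median 8.64) on the AL arrays. AL1 fell within the DR range and the other AL arrays lay above it (-2.58 ± 0.37 (SE, adjusted p = 2.67e-05)). Ccl8 changed by -1.53 (adjusted p = 0.00307) and Ccl2 by -1.14 (adjusted p = 0.00673), and Ccl2 was detected on 1 DR and 6 AL arrays. Without the 7 arrays 1 higher and 1 lower were called, and Ccl8 was at -1.42 (adjusted p = 0.0505) and Ccl2 at -1.02 (adjusted p = 0.097). Granulocyte and mast cell markers counted 4 lower and 0 higher of 13 (0 higher and 2 lower without the 7 arrays). Their largest change was that of Rnase2a, an eosinophil ribonuclease, at -3.79 (adjusted p = 1.12e-05). Ear3, a relative in the same family, was at -0.89 (adjusted p = 0.014), or -0.78 (adjusted p = 0.0772) without the 7 arrays, and the near-identical members of that family may share probe signal. T and B lymphocyte markers had 0 of 8 called.

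Complement genes counted 6 lower and 2 higher of 17 (3 higher and 3 lower without the 7 arrays). Masp1, a protease that starts the lectin pathway, lay between 7.29 and 7.82 (median 7.67) on the DR arrays, against 5.65 to 6.65 (median 6.26) on the AL arrays. Every DR array was higher (1.42 ± 0.23 (SE, adjusted p = 0.000155)). C4a, whose probe may also read its near-identical copy C4b, lay between 10.18 and 11.82 (median 11.15) on the DR arrays, against 12.14 to 12.63 (median 12.24) on the AL arrays. Every DR array was lower (-1.24 ± 0.21 (SE, adjusted p = 0.00019)). C6, of the membrane attack complex, changed by -1.49 (adjusted p = 0.0119), or -1.16 (adjusted p = 0.157) without the 7 arrays. Acute-phase and inflammatory proteins counted 3 lower and 1 higher of 11 (1 higher and 1 lower without the 7 arrays), and haptoglobin (Hp), which binds free hemoglobin, changed by -0.91 (adjusted p = 0.00019) without overlap. MHC genes counted 3 lower and 1 higher of 25. H2-DMb1 and H2-DMb2, near-identical genes of a protein that loads peptide onto class II molecules, changed by -0.95 (adjusted p = 0.00463) and -1.04 (adjusted p = 0.0105) and may share signal. The higher one was H2-Ke6, which lies in the MHC region but encodes a hydroxysteroid dehydrogenase, at 0.55 (adjusted p = 0.0168). Interferon-stimulated genes had 1 of 28 called lower, Ifi27l2a at -1.31 (adjusted p = 0.00174), and 0 higher.

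Markers of the cells in the fat pad were counted in the same way. Adipocyte markers had 1 of 15 called lower, Lep, and 0 higher (2 higher and 1 lower without the 7 arrays). Their median log2 fold change was -0.03, with 7 members above 0 and 8 below. Their median level lay between 10.42 and 10.83 on DR arrays, against 10.05 to 10.51 on AL arrays. On every DR array that level was the value of Lipe, which was not called, so it does not show a rise of the list. Fibroblast and progenitor markers counted 3 lower of 16, and none was called without the 7 arrays; their level lay between 8.00 and 8.85 in DR and between 8.35 and 9.21 in AL. Endothelial markers counted 2 lower of 20 (10%, against 6.50% of all genes), the junction proteins Cldn5 at -0.89 (adjusted p = 0.0142) and Cdh5 at -0.85 (adjusted p = 0.0136). Mesothelial markers counted 3 higher of 13 (median 0.50), among them Upk3b, a uroplakin of the pad's lining, at 1.29 (adjusted p = 0.0198). The level of the mesothelial list was between 5.45 and 6.69 in DR and between 4.81 and 6.71 in AL. Skeletal muscle markers counted 1 higher and 2 lower of 9 (0 higher and 1 lower without the 7 arrays), erythrocyte markers 1 higher of 4, hepatocyte markers 1 higher of 6 (0 higher and 0 lower without the 7 arrays), and nerve and Schwann cell markers 0 of 6. These marker levels stand beside the matrix and macrophage results, and their part in them was not tested.

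The epididymis markers called higher differed widely among DR arrays. Wfdc10, an epididymal inhibitor of proteases, lay between 5.81 and 13.61 (median 9.43) on the DR arrays, against 4.46 to 7.39 (median 5.24) on the AL arrays. Its fold change was 4.25 ± 1.24 (SE, adjusted p = 0.0253), and 2.06 (adjusted p = 0.0755) without the 7 arrays. Adam7, a membrane protein of epididymal epithelium, changed by 3.97 (adjusted p = 0.0269), and 1.84 (adjusted p = 0.122) without them. Defb20, a defensin, was at 3.80 (adjusted p = 0.00474), and at 2.36 (adjusted p = 0.0415) without the 7 arrays. Single arrays also decided the calls of Wfdc10 (DR5 or DR8, adjusted p up to 0.06) and Adam7 (DR1, DR3, DR5 or DR8, adjusted p up to 0.0596).

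**Figure D5:**
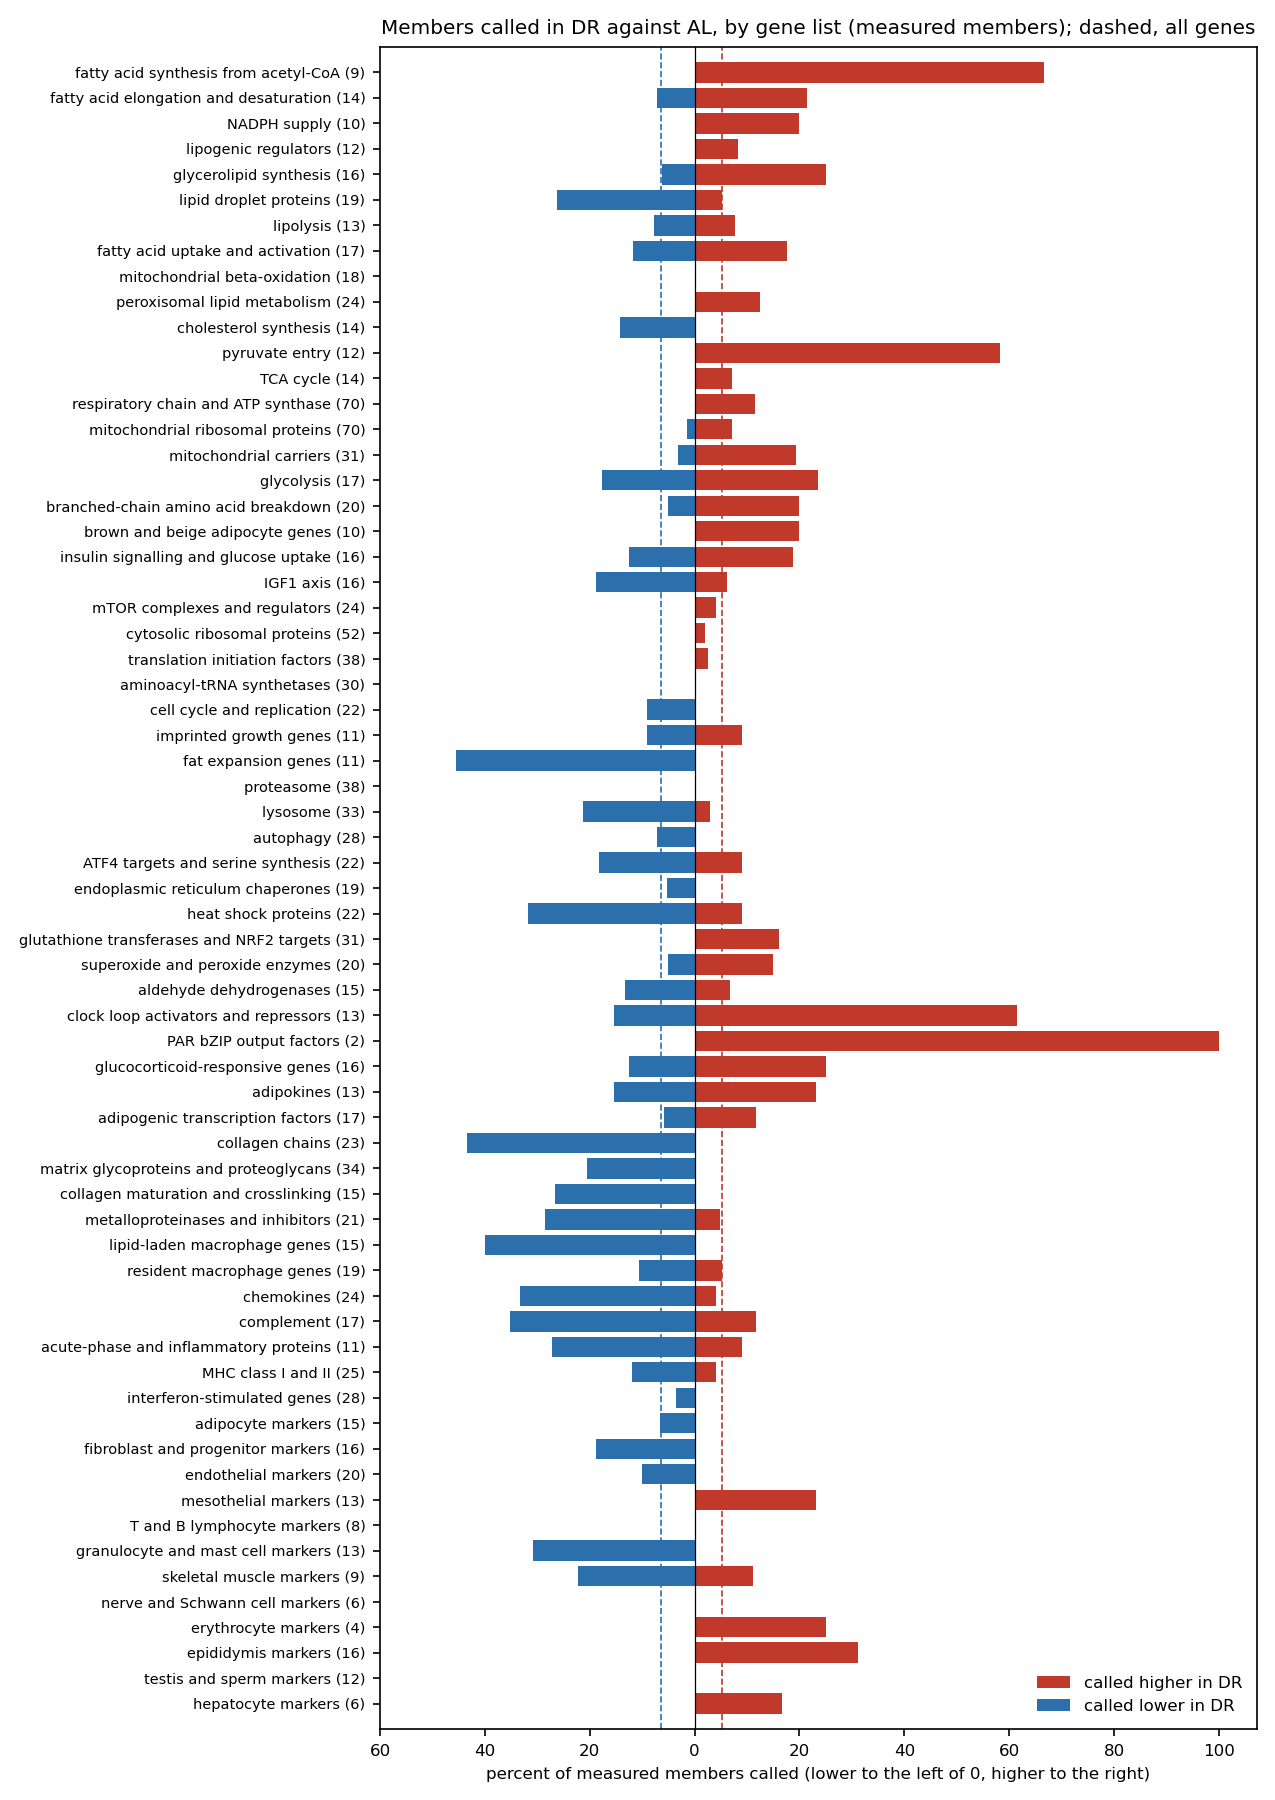
Percent of the measured members of each of 65 gene lists called lower (left of 0) and higher (right) in DR against AL, with the number measured in brackets and dashed lines at the shares over all genes, 6.50% lower and 5.20% higher. Fatty acid synthesis, pyruvate entry and clock lists extend farthest to the right, and fat expansion, collagen and lipid-laden macrophage lists farthest to the left.

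Rapamycin for the same time offers another treated group in the same fat. DR differed from Rapa in 1123 genes (11.4%), 578 higher (5.88%) and 545 lower (5.54%). Rapa differed from AL in 15 genes (0.153%), 0 higher and 15 lower. The comparisons share arrays, so values are set side by side and no overlap is read. Elovl6 averaged 11.58 in DR, 7.86 in Rapa and 7.86 in AL, a difference of 3.72 (adjusted p = 6.73e-08) for DR minus Rapa and of -0.01 (adjusted p = 0.997) for Rapa minus AL. Dbp averaged 12.04 in DR, 9.10 in Rapa and 9.15 in AL, and Lep averaged 13.29 in DR, 14.64 in Rapa and 14.82 in AL. Acss2 averaged 12.59 in DR, 9.85 in Rapa and 11.04 in AL, and it was called lower in Rapa than in AL at -1.19 (adjusted p = 0.0121), opposite in sign to its rise in DR. The difference for DR minus Rapa was 2.74 (adjusted p = 3.99e-09).

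For other genes DR and Rapa lay on the same side of AL. Mogat2 averaged 5.59 in DR, 5.19 in Rapa and 7.08 in AL, was called lower in Rapa than in AL at -1.89 (adjusted p = 0.000755), and was at 0.40 (adjusted p = 0.412) for DR minus Rapa. C6 averaged 7.10 in DR, 6.40 in Rapa and 8.59 in AL, with -2.19 (adjusted p = 0.00964) for Rapa minus AL and 0.70 (adjusted p = 0.299) for DR minus Rapa. Gpx3 averaged 12.82 in DR, 12.77 in Rapa and 11.77 in AL, and Hspb1 averaged 7.18 in DR, 7.42 in Rapa and 8.52 in AL. For neither was Rapa called against AL, at 1.00 (adjusted p = 0.205) for Gpx3 and -1.10 (adjusted p = 0.229) for Hspb1, nor DR against Rapa, at 0.05 (adjusted p = 0.945) and -0.24 (adjusted p = 0.746). A p that misses the threshold does not show that the 2 treatments act alike on these genes.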

How the data were processed

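Total RNA of each of 24 samples was labelled as biotinylated cRNA and hybridised to an Illumina mouse BeadChip, per the labels. The deposited intensity values cover 45281 probes and were background-subtracted before deposit, since every array holds values below 0, and the deposited detection p-value of each probe is named in the file headers. Of the scanner software the sources used here say nothing. The authors' processed score, a z-score of log intensity within each array as judged from the values, was used only as an alternative, and its log base stays unknown.

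The intensities were normalized with limma 3.58.1 in R 4.3.3 (neqc, offset 16, which includes quantile normalization and log2), figures in matplotlib 3.10.9. A probe entered if its detection p was below 0.05 on 8 or more arrays (17165 probes), and 14717 of them carry 1 symbol in the platform annotation and 2448 are unnamed here. A gene is its kept probe with the highest mean, giving 9836 genes. Of the called genes 447 had more than 1 kept probe, and on 395 of these all probes had the same sign, on 153 all were called in the same direction and on 1 a further probe was called in the opposite one. One fit of 3 group means over the 24 arrays had 21 residual degrees of freedom, and p-values were two-sided and adjusted over the kept probes after Benjamini and Hochberg. The number of arrays limits the precision.

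The comparison, the 65 gene lists, the tests and the rule for named genes were chosen with earlier results of these data known. The rule takes the 15 largest rises and 15 largest falls among called genes with groups that do not overlap, up to 4 called members of each list with the largest change, set anchor genes of each list, and genes detected on all 8 arrays of one group and on none of the other. The text prints 151 of the 204 genes of this rule with values. Mcm5, Hspa9, Dnajb4, Npc1 and Clock are named without values as members of a count. For a gene that no DR array detected, a lower bound of the fold is printed: the AL mean over the DR mean of each array's lowest detected signal, or of the gene's own signal if higher. Lists were described by counts and medians, with no test. The replicate numbers of the titles were checked as pairs of a DR and an AL array. The alternatives were the normalization, the offset, the probe filter, the choice of probe, the arrays included, blocks and array weights.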

Additional observations from a re-analysis of the deposited data

Results flagged for a closer look

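In 23 of 302 groups of 8 arrays over the 151 genes with values, 1 array lay far from the rest by Dixon's ratio of gap to range, where chance gives about 1 group in 20. In DR, the array DR5 stood low for Slc27a1 (9.81) and Hsph1 (4.80) and high for Hsd17b7 (8.71) and Bcat1 (6.76). DR1 stood low for Edem1 (4.86) and high for Arntl (6.01), and DR2 low for Ndufa10 (11.94) and high for Ccl2 (5.61). DR7 stood high for Mmp12 (6.41) and Timp1 (7.14), DR4 high for Tph2 (6.12), and DR8 low for Loxl1 (9.81). In AL, AL6 stood low for Fgf13 (9.41), Col6a2 (9.28), Col5a1 (11.10) and Pvalb (5.47) and high for Wfdc10 (7.39). AL1 stood low for Pcx (7.66) and high for Per3 (7.54) and Adam7 (8.25), AL5 low for Igfals (9.42) and high for Srebf1 (9.26), and AL2 high for Cryab (10.08). These values are log2 intensities.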

How the results depend on the processing

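Leaving out any 1 DR or AL array gave 914 to 1258 called genes, 388 to 556 higher and 516 to 702 lower, with AL3 and AL1 at the ends of the total. Without the 7 arrays above the marker score 676 genes were called (302 higher, 374 lower), and without the 7 arrays above the epididymis limit, which leaves 3 DR arrays, 458 (177 higher, 281 lower), a limit chosen after seeing the data; fewer arrays enter both. Of the 138 named and called genes 116 and 100 kept the call there, and 0 of the 138 reversed under any alternative run. These counts are no independent support, since every run reuses arrays that made the calls. Called without the marker-score arrays but not without the epididymis-limit arrays were Tecr, Pnpla3, Ndufa10, Bcat2, Hsd17b10, Ppargc1b, Igfals, Ctsk, Hsph1, Tcf7l2, Loxl1, Pcolce2, Mpeg1, Ifi27l2a, Cdh5, Upk3b and Defb20. Median scaling over all probes, also chosen after seeing the data, gave 577 genes (68 higher) and kept 91 of the 138. The cause was not tested. Rises that lost the call there were Defb37, Scd1, Tecr, Srebf1, Pck1, Gpam, Lpin1, Acsm5, Slc27a1, Pex3, Pdk1, Pdha1, Pcx, Ndufa10, Ndufa12, Mrps30, Slc25a33 and Pfkl. Others were Bcat2, Hsd17b10, Cidea, Akt2, Insr, Cdkn1c, Shmt1, Gsta4, Gstt2, Mgst2, Gpx3, Tef, Per1, Nrg4, Vegfa, Tcf7l2, Masp1, H2-Ke6, Upk3b, Wfdc10 and Adam7. Falls that lost it were Angptl4, Igfbp5, Ctsa, Atg101, Hspb1, Mpeg1, Adgre1 and Ear3. Median scaling over kept probes gave 514 higher and 562 lower and ended the calls of Insr, H2-Ke6, Adamts4 and Spc25. The authors' score gave 409 higher and 732 lower and ended those of Defb37, Akt2, Insr, Tcf7l2, Col6a1, Prelp, Hp, Wfdc10 and Adam7. A call by the majority of a gene's kept probes gave 380 higher and 527 lower and ended those of Mogat2, Lpin1, Pex3, Pfkp, Ctsa, Map1lc3a, Gstt2, Tcf7l2, H2-DMb2, Cdh5, Upk3b and Wfdc10. The marker score as a covariate gave 591 higher and 519 lower and ended those of Defb37, Tecr, Angptl4, Map1lc3a, Gpx3, Loxl1, Adgre1, Cldn5, Cdh5, Ear3 and Wfdc10. Without a probe filter 396 higher and 512 lower were called, without Defb37, Srebf1, Angptl4, Adgre1, Upk3b, Wfdc10 and Adam7, and an offset of 50 ended the call of Defb37. Array weights gave 1804 genes (857 higher). Same-numbered DR and AL arrays correlated in their deviations at 0.04 to 0.57, over 0.1 in 6 of 8 pairs, and 3 of 8 DR arrays were closest to their own number, so the number was not taken as a pairing. With the title number as a replicate block 1886 genes were called (870 higher, 1016 lower), 1765 for DR against Rapa and 121 for Rapa against AL. With the number class as a block, chosen after seeing the data, the counts were 1953 (912 higher, 1041 lower), 1887 and 154. There 5 of 38 initiation factors were called higher and 1 lower, and 3 of 24 mTOR genes higher and 2 lower. These stand beside 912 higher and 1041 lower of all 9836 genes with that block. Named genes without a call were called as well under some alternatives. Fasn was called at 0.93 with the replicate block (adjusted p = 0.031) and with the number class (0.0278), under array weights, without DR5 or DR7, and without the epididymis-limit arrays at 1.97 (adjusted p = 0.0019). Dgat2 was called at -0.51 under both blocks (adjusted p = 0.0311 and 0.0204), under array weights, median scaling over all probes, an offset of 50 and the stricter filter, and without DR1, DR3 or DR4. It was not called with the authors' score, at -0.08 (adjusted p = 0.944), or with median scaling over the kept probes, at -0.40 (adjusted p = 0.219). Without the epididymis-limit arrays Mlxipl was called at 1.35 (adjusted p = 0.023), Slc2a4 at 0.61 and Pparg at 0.78. The covariate added calls of Mlxipl, Slc2a4, Pparg, Pnpla2, Lipe and Cebpa. Array weights added Pnpla2, Lipe, Fkbp5 and Pparg, the fit to 16 arrays Pnpla2, Lipe and Fkbp5, an offset of 50 and the stricter filter Fkbp5, the authors' score Pparg, and leaving out 1 array Fkbp5 (AL1 or DR1) and Pparg (DR5). The detection limit bounds what can be said of genes near background, such as Fasn and Arntl.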

Other observations

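At an unadjusted p under 0.05, 2480 of the 9836 genes differed between DR and AL.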
